A study of Mus musculus with 4 samples.

Results

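Stimulated CD4+ T cells labelled as lacking the ubiquitin ligase Itch were compared with cells labelled as having it, 2 libraries on each side and 4 in all, which is the whole series. On the Itch-deficient side stood a library labelled as a double knockout of Itch and WWP2 and a library of Itchf/f Cd4cre cells (Itch KO), in which Cre recombinase driven by the Cd4 promoter deletes a floxed Itch allele in T cells. On the Itch-intact side stood a WWP2-/- library (WWP2 KO) and a wild-type library. All were RNA from splenic CD4+ T cells of B6 mice, 6 weeks of age, treated with PMA, a phorbol ester, and ionomycin, an ionophore for calcium, which together replace signals from the T cell receptor. The deficient pair below means the library labelled double KO with Itch KO, and the intact pair WWP2 KO with wild type, their values listed in that order. Each genotype gave 1 library, so the spread within a side is a spread between genotypes, and WWP2 loss as labelled is carried by 1 library of each side. Neither the alleles behind the double knockout label nor the stimulation time nor the mice per library are stated in the labels used here.

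Itch is a HECT-type ubiquitin ligase of the NEDD4 family, recruited to many of its substrates by the adaptor Ndfip1, and JunB is among its known targets in T cells. Mice without Itch develop inflammation of skin and lung with a bias to type 2 helper (TH2) cells, whose cytokines IL-4, IL-5 and IL-13 act on B cells, eosinophils and epithelia. Naive T cells recirculate through lymph nodes in a quiescent state, and on becoming effector or memory cells they lose homing and quiescence genes and gain adhesion, migration and cytokine genes.

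The libraries held 17990392 reads assigned to genes on the deficient side for the library labelled double KO and 17640778 for Itch KO, against 17130747 for WWP2 KO and 17627531 for wild type, so depth limited the 4 alike. Wwp2 had 1135 reads in the library labelled double KO and 1332 in Itch KO, against 4 in WWP2 KO and 1363 in wild type. The double KO label therefore goes against its Wwp2 count, and the library is called by its label throughout. Itch had 2389 and 1914 reads in the library labelled double KO and in Itch KO, against 1996 and 2083 in WWP2 KO and wild type. Since reads from exons that the deletion leaves in place enter the gene's count, neither Itch label is checked by it. The markers of the labelled cell type summed to 2591 and 2570 CPM (counts scaled for library size, with TMM factors) on the deficient side and 2608 and 2691 CPM on the intact side, in the same order of libraries, and B cell markers to no more than 5.42 CPM in any library. Single markers of the labelled type were not level, and in the library labelled double KO they differed in both directions. Cd4 had 508 and 246 CPM on the deficient side against 169 and 235 CPM on the intact side. Cd5 had 295 and 623 CPM on the deficient side against 692 and 697 CPM on the intact side.

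Of 21937 genes in the table, 9926 had a mean of at least 2 CPM over the 4 libraries. A gene high in 1 library alone could reach this mean. A gene was counted as consistent when both Itch-deficient libraries lay on the same side of both intact libraries, which says nothing of the size of the difference. There were 2397 consistent genes higher in the Itch-deficient labels (24.1% of genes tested) and 2676 lower (27.0%). The gap of a consistent gene is the log2 ratio of the nearer deficient library to the nearer intact library, with a prior count of 2. Gaps printed below as a fold with an interval are plain CPM ratios without the prior count. At low counts such a fold is larger than the log2 gap. A gap of at least 1 in size, that is 2-fold between the nearest libraries, with a 95% counting interval of that ratio that left out 1, was reached by 365 higher genes (3.68%) and 43 lower genes (0.433%). These intervals cover counting error only. Counts of list members below are to be read beside these shares of all genes tested. Among the 2-fold higher genes 79 had a gap of at least 4-fold and 16 of at least 8-fold, while a single lower gene, Amigo2, passed 4-fold.

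The 2 directions also differed in level. The 365 higher genes had a median of 17.5 CPM in the deficient labels and 2.26 CPM in the intact ones, and 166 of them averaged under 2 CPM in the intact libraries. The 43 lower genes had a median of 11.2 CPM in the deficient labels and 40.4 CPM in the intact ones, and 6 of them averaged under 2 CPM in the deficient libraries. The members just inside and just outside the 2-fold limit were close together. Ctla2b, with a gap of 1.003, and Lgals7 lay inside it, and Asf1b and Arhgap19, with gaps of 0.9998 and 0.997, outside. Among lower genes Pck2 (-1.01) and Foxj1 (-1.02) lay inside and B4galnt1 (-0.9988) and Ccdc90b (-0.95) outside.

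edgeR's quasi-likelihood test of the 2 labels, with Benjamini-Hochberg adjustment over all 9926 genes, called 1 gene higher (0.0101%) and 0 lower (0%) at 0.05. The gene was Il5, at an adjusted p of 0.0183. At an unadjusted p under 0.05 there were 891 genes higher (8.98%) and 392 lower (3.95%). DESeq2's Wald test on the same counts called 555 higher and 108 lower. The Il5 call was lost without the WWP2 KO library, at an adjusted p of 0.0752, and held in the other planned edgeR fits that could be made. An exact permutation of 2 against 2 libraries cannot give a two-sided p below 0.333. Everything below, other than Il5, is therefore a description of 4 libraries by their values and gaps.

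The deficient libraries lay farther from each other than the intact ones did. Over all genes tested the median absolute log2 difference between the library labelled double KO and Itch KO was 0.39, against 0.11 between WWP2 KO and wild type. A difference of at least 1 was found for 1423 genes in the deficient pair and for 52 in the intact pair. In 349 of the 365 2-fold higher genes (95.6%) and in 37 of the 43 2-fold lower genes (86.0%) the library labelled double KO lay farther from the intact libraries than Itch KO did. For the higher genes the median log2 ratio was 3.22 for the library labelled double KO over WWP2 KO and 1.69 for Itch KO over wild type. For the lower genes it was -2.29 and -1.31. These pairs share no library, and across all 9926 genes their log2 ratios had a Pearson r of 0.70 and a Spearman rho of 0.45, with the same sign in 64.2%. A 2-fold difference in opposite directions was found for 2 genes (0.0201%), Slamf7 and Syde2. Genes are not independent replicates, so no p is given.

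**Figure D1:**
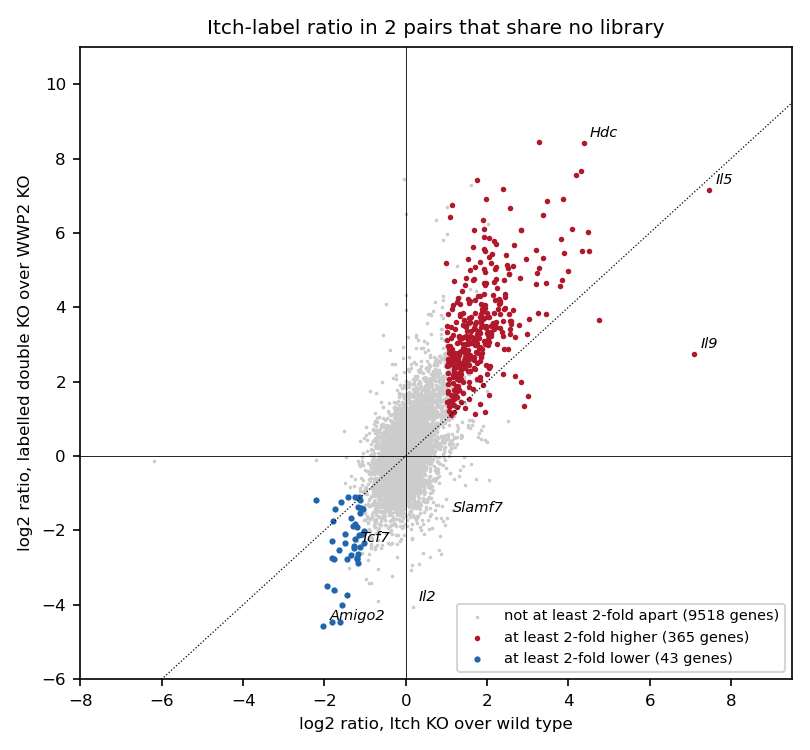
Each point is 1 of 9926 genes, with the log2 ratio of Itch KO over wild type on the horizontal axis and of the library labelled double KO over WWP2 KO on the vertical axis; red and blue mark genes at least 2-fold apart between the labels (365 higher, 43 lower) and the dotted line marks equal ratios. Most red points lie above the dotted line and most blue points below it, while Il5 and Il9 lie under it on the higher side.

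Il5 had the widest gap of all, and the other TH2 cytokine genes Il13 and Il4 were among the 20 widest named on the higher side. Il5, the gene of a cytokine on which eosinophils depend, had 1990 reads in the library labelled double KO and 2290 in Itch KO, against 11 in each intact library, a gap of 167-fold (95% counting interval 93.1 to 335). Il13, the cytokine of mucus and airway responses, had 2997 and 3206 reads in the library labelled double KO and Itch KO, against 219 in WWP2 KO and 117 in wild type, a gap of 12.6-fold (11 to 14.5). Il4, which drives TH2 differentiation and class switching to IgE, had 460 and 236 reads in the deficient pair against 31 and 27 in the intact pair, a gap of 7.52-fold (5.16 to 11.3). For Il5 and Il13 the deficient libraries lay close to each other and far from the intact ones, while the Il4 counts of the deficient libraries lay farther apart. Il6, an inflammatory cytokine gene, had 641 and 57 reads in the library labelled double KO and Itch KO against 1 read in each intact library, so the size of its gap, 56.3-fold, has an interval of 9.71 to 2264.

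Of 22 measured genes on the TH2 list, 20 were consistent and higher, 16 of them by at least 2-fold, with a median log2 difference of 2.52 where all genes tested had -0.04. The exceptions were Rad50, a DNA repair gene that lies within the TH2 cytokine locus and did not separate the labels, and Stat6, the transducer of IL-4 signals, at 4276 and 5784 reads in the library labelled double KO and Itch KO against 6337 in WWP2 KO and 6426 in wild type. Gata3, the lineage factor of TH2 cells, had 7536 and 2814 reads in the deficient pair against 654 and 621 in the intact pair. Pparg, a nuclear receptor expressed in TH2 cells, had 252 and 91 in the deficient pair against 6 and 14 in the intact pair. Without the library labelled double KO, Itch KO was above both intact libraries for 19 of 21 TH2 genes, against 37.6% of all genes tested. By at least 2-fold 15 were so, against 3.22%. The rule already requires this of consistent higher genes, so these counts largely repeat the ones above and add no support. Fewer cells of a type and less RNA per cell cannot be told apart in bulk samples such as these, in either direction.

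The Il13 promoter carries 1 match to AGATAA, a form of the GATA recognition sequence, and is shown since Il13 is among the TH2 cytokine genes described above. The sequence is RefSeq's (GRCm38.p6, another build than the mm9 named in the submitters' processing notes), at chr11:53634673-53634872 on the minus strand, 170 bases before to 30 after the start, with the match in capitals.

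Il13: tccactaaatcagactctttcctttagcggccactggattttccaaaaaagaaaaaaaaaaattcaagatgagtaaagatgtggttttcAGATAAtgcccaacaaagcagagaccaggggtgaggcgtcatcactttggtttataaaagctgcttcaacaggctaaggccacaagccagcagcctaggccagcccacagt

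Read on both strands from 250 bases before to 50 after the start, AGATAA was present in 5 of 17 TH2 list genes with a RefSeq promoter (29.4%) and in 6.05% of the 7998 tested genes with one. The AP-1 form TGANTCA was present in 4 of the 17 (23.5%), against 4.51% of all, and in 10.04% of the promoters of 2-fold higher genes. Neither motif was confined to the higher side. Promoters of 2-fold lower genes held AGATAA in 15.2% and TGANTCA in 12.1% of 33, AGATAA was in 7.17% of those of 2-fold higher genes, and the interferon-stimulated list held TGANTCA in 23.5% of 34. A match is a description of these windows and not a binding site.

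Genes of histamine and of lipid mediators followed. Hdc, the enzyme that makes histamine, had 11148 reads in the library labelled double KO and 433 in Itch KO, against 28 in WWP2 KO and 19 in wild type. The deficient libraries differed more from each other here than Itch KO did from the intact ones. Cysltr1, a receptor for cysteinyl leukotrienes, had 3518 and 764 reads in the deficient pair against 45 and 43 in the intact pair, and its relative Cysltr2 had 310 and 261 in the deficient pair against 63 and 39 in the intact pair. Ltb4r1, the receptor for leukotriene B4, had 186 and 52 in the deficient pair against 5 and 3 in the intact pair. Of 15 measured genes of the histamine and eicosanoid list 7 were consistent and higher, 4 by at least 2-fold, and 2 were lower, Slc18a2 and Ptges2, with gaps of -0.25 and -0.11. Pltp, a phospholipid transfer gene, had 242 and 20 reads and none in either intact library, which makes it at least 6.59-fold higher in the nearer deficient library, taking 3 reads as the floor of an intact library.

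Of the basophil and mast cell marker list, 8 of 12 genes had no more than 3 reads in each library and 5 had none, the high-affinity IgE receptor genes Fcer1a and Ms4a2 among the latter. The list summed to 606 CPM in the library labelled double KO and 36.4 CPM in Itch KO, against 32.5 CPM in WWP2 KO and 29.2 CPM in wild type, and Hdc accounted for 600 and 24.96 CPM on the deficient side. Its other abundant member, the stem cell factor receptor gene Kit, was lower in both deficient labels. The ILC2 list summed to 1330 and 258 CPM in the deficient pair against 145 and 141 in the intact pair, led by the IL-33 receptor gene Il1rl1, which TH2 cells also express, with 19545 and 1785 reads in the deficient pair against 266 and 249 in the intact pair. Of the 6 ILC2 members tested 3 were consistent and higher and 1 lower. Arg1 had 10 and 7 reads in the deficient pair against 8 and 3 in the intact pair, and Rora 9.47 and 21.7 CPM against 16.6 and 16.0 CPM. The CD8 T cell list summed to 3402 and 200 CPM in the deficient pair against 41.8 and 60.4 CPM in the intact pair, most of it the granzyme gene Gzmb. Cd8a had 2 and 9 reads in the deficient pair against 4 and 2 in the intact pair. Crtam had 3.39 and 7.09 CPM in the deficient pair against 6.12 and 7.56 CPM in the intact pair. Macrophage markers summed to 21.1 and 7.21 CPM in the deficient pair against 4.08 and 4.38 in the intact pair, of which Cd68 gave 19.0 and 5.94 in the deficient pair against 3.27 and 2.999 in the intact pair, and the macrophage genes C1qa, C1qc and Fcgr1 had no read. The part of these cells in the results was not tested.

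**Figure D2:**
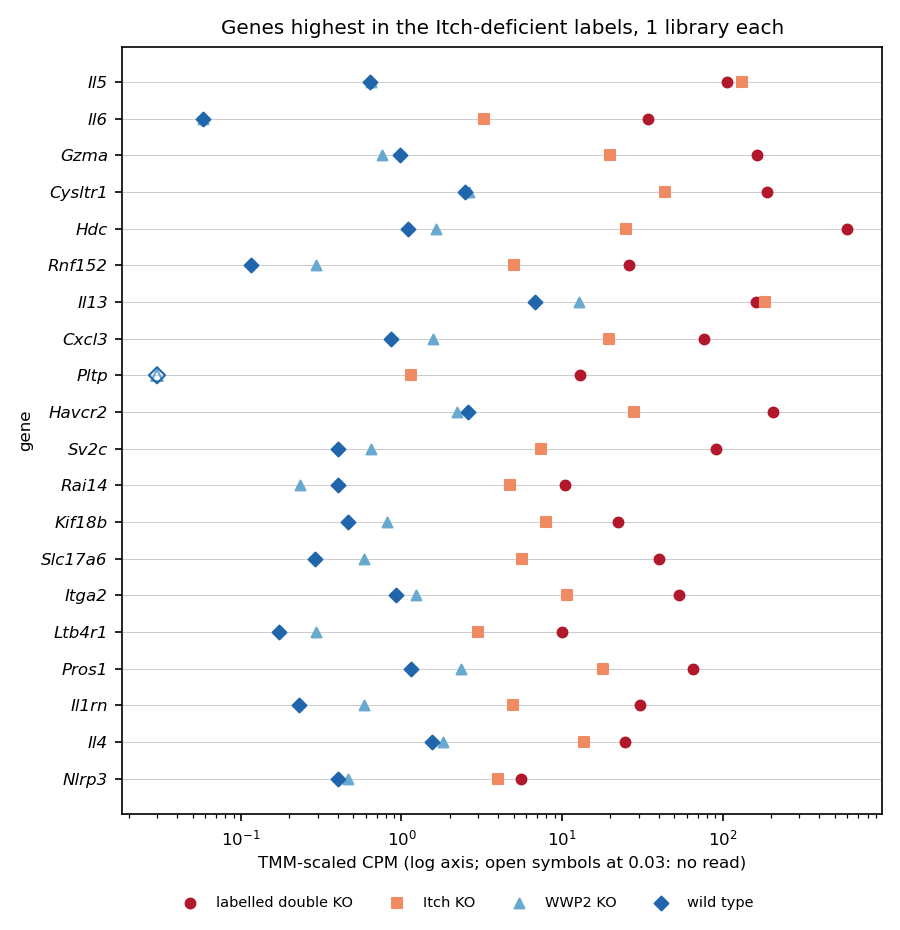
TMM-scaled CPM on a log axis for the 20 named genes with the widest gap on the higher side, 1 symbol for each library; open symbols mark no read. Every red and orange symbol stands right of both blue ones, and for most genes the library labelled double KO stands farthest right, with Il5 and Il13 as exceptions.

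Effector and memory genes were higher almost throughout. Of 33 measured, 31 were consistent and higher, 22 by at least 2-fold, and none was lower, with a median log2 difference of 2.27. Lgals3, a galectin of activated T cells, had 3430 and 234 reads in the library labelled double KO and Itch KO, against 45 and 31 in WWP2 KO and wild type. Ccr2, a chemokine receptor of migrating cells, had 552 and 107 CPM in the deficient pair against 21.5 and 23.8 CPM in the intact pair. Lgals1 had 7919 and 1156 reads in the deficient pair against 220 and 252 in the intact pair, and Anxa2, an annexin of the cell cortex, had 3631 and 1052 reads in the deficient pair against 230 and 233 in the intact pair. The members that did not separate the labels were Tmsb10, at 18027 and 12664 reads in the deficient pair against 17371 and 16235 in the intact pair, and the integrin gene Itga4. Without the library labelled double KO, Itch KO was above both intact libraries for 29 of 31, against 37.6% of all genes tested. By at least 2-fold 20 were so, against 3.22%. As for the TH2 list, the rule already requires this of consistent higher genes, so these counts add no support.

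Calcium-binding and surface families went with them. All 5 measured S100 genes were consistent and higher, 3 by at least 2-fold, with S100a6 at 3737 and 448 reads in the library labelled double KO and Itch KO against 82 and 106 in WWP2 KO and wild type. Of 8 annexins 6 were consistent and higher, 4 by at least 2-fold. Of 14 chemokine receptors of the CC and CXC classes 9 were higher, 7 by at least 2-fold, and 2 lower. Ccr1 had 988 and 39 reads in the deficient pair against 7 and 5 in the intact pair, while the lymph node homing receptor gene Ccr7 had 3258 and 9584 in the deficient pair against 12378 and 12601 in the intact pair. Of 15 integrin chains 9 were higher, 4 by at least 2-fold. Itga2, a collagen receptor chain, had 1001 and 185 reads in the deficient pair against 21 and 16 in the intact pair, and Itgb3, part of the vitronectin receptor, had 3933 and 2523 in the deficient pair against 668 and 646 in the intact pair.

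Coinhibitory receptors and Treg genes were also mostly on the higher side. Of 17 coinhibitory receptor genes 10 were consistent and higher, 6 by at least 2-fold. Havcr2, which encodes TIM-3, had 3850 and 486 reads in the library labelled double KO and Itch KO against 38 and 45 in WWP2 KO and wild type, and Lag3 had 1716 and 234 in the deficient pair against 57 and 49 in the intact pair. The 2 lower members were Cd274, the gene of PD-L1, at 5142 and 7461 in the deficient pair against 10562 and 8910 in the intact pair, and Cd5. Of 22 Treg genes 20 were consistent and higher, 11 by at least 2-fold, led by Il10, an anti-inflammatory cytokine gene, with 4524 and 455 reads in the deficient pair against 95 and 103 in the intact pair. Foxp3, the lineage factor of Treg cells, was 1 of the 2 that did not separate the labels, with 3039 and 5029 reads in the deficient libraries against 3791 and 3005 in the intact ones.

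Of 14 granzyme and cytotoxic granule genes 10 were consistent and higher, 3 by at least 2-fold, and 2 lower. Gzma had 3040 and 345 reads in the library labelled double KO and Itch KO against 13 and 17 in WWP2 KO and wild type, and Gzmb had 62971 and 3025 in the deficient pair against 480 and 767 in the intact pair. Of 16 TH1 genes 8 were consistent and higher and 2 lower, with 3 at least 2-fold higher. They were the chemokine receptor gene Cxcr6, the IL-12 receptor gene Il12rb1 and the IL-18 receptor gene Il18rap, with gaps of 1.44, 1.25 and 1.05. The lymphotoxin gene Ltb, on the lower side, had a gap of -0.54.

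Cell cycle genes divided by phase. Of 56 mitosis genes 54 were consistent and higher, 46 of them by at least 2-fold, with a median log2 difference of 2.53. Of 48 S phase genes 29 were consistent and higher, 8 by at least 2-fold, and 3 lower, with a median of 0.35. Kif18b, a mitotic kinesin, had 412 and 137 reads in the library labelled double KO and Itch KO against 14 and 8 in WWP2 KO and wild type. Aurkb, the kinase of the chromosomal passenger complex, had 409 and 123 in the deficient pair against 22 and 21 in the intact pair. Troap, a spindle-associated gene, had 129 and 54 in the deficient pair against 6 and 7 in the intact pair, and the chromokinesin gene Kif4 had 410 and 181 in the deficient pair against 34 and 29 in the intact pair. Levels in the intact libraries were thus low, and those of Itch KO lay between.

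In S phase fewer members had wide gaps than in mitosis, 16.7% of those tested being at least 2-fold higher against 82.1%. The share of all genes tested was 3.68%. Mcm10, a replication initiation factor, had 214 and 83 reads in the library labelled double KO and Itch KO against 11 and 14 in WWP2 KO and wild type, Rrm2, a subunit of ribonucleotide reductase, had 1157 and 424 in the deficient pair against 105 and 97 in the intact pair, and E2f8, a repressor of E2F targets, and E2f2, an activator of them, had gaps of 1.88 and 1.72. The members nearest to no difference that are named here were Mcm6 and Rpa1. Mcm6, a subunit of the replicative helicase, had 2578 and 2639 reads in the deficient pair against 2460 and 2572 in the intact pair. Scaled for library size, Mcm6 was lowest in the library labelled double KO and did not separate the labels. Rpa1, which binds single-stranded DNA and did not separate the labels either, had 2066 and 1336 reads in the deficient pair against 1479 and 1691 in the intact pair. Of 25 kinesins 14 were consistent and higher, 8 by at least 2-fold, while Kif1b and Kif16b, which carry cargo in the cytoplasm, were lower, with gaps of -0.47 and -0.14. Without the library labelled double KO, Itch KO was at least 2-fold above both intact libraries for 41 of 51 mitosis genes. It was so for 8 of 45 S phase genes, against 3.22% of all genes tested. The rule already requires this of 2-fold higher genes that are still tested, so these counts add no support.

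The promoters of the mitosis genes are shown for their shared letters. TTTGAA, the core of the cell cycle homology region, and CCAAT, the box bound by NF-Y, are in capitals; both strands were searched and neither motif lies within the other. Cyclin B2, a partner of the mitotic kinase Cdk1, has its RefSeq window at chr9:70421525-70421724 on the minus strand, and Cdc20, an activator of the anaphase-promoting complex, at chr4:118437314-118437513 on the minus strand (GRCm38.p6, 170 bases before to 30 after the start).

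Ccnb2: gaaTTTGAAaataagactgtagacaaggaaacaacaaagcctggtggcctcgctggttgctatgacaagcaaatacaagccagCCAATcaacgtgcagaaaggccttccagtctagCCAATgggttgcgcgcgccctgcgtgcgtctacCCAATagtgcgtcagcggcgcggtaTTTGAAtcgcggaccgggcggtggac
Cdc20: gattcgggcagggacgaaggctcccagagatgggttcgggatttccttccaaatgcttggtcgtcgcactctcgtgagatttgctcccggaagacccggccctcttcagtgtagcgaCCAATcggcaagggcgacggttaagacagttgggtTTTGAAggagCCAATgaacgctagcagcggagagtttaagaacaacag

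TTTGAA was present in 33 of 47 mitosis genes with a RefSeq promoter (70.2%), in 6 of 40 S phase genes (15.0%) and in 11.8% of all 7998. CCAAT was present in 70.2% of mitosis promoters, 60.0% of S phase promoters and 39.4% of all. Ccnb2 had 274 and 85 reads in the library labelled double KO and Itch KO against 13 and 22 in WWP2 KO and wild type. Cdc20 had 399 and 173 in the deficient pair against 69 and 70 in the intact pair. Of the 2-fold higher genes outside both cell cycle lists, 18.9% carried TTTGAA.

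**Figure D3:**
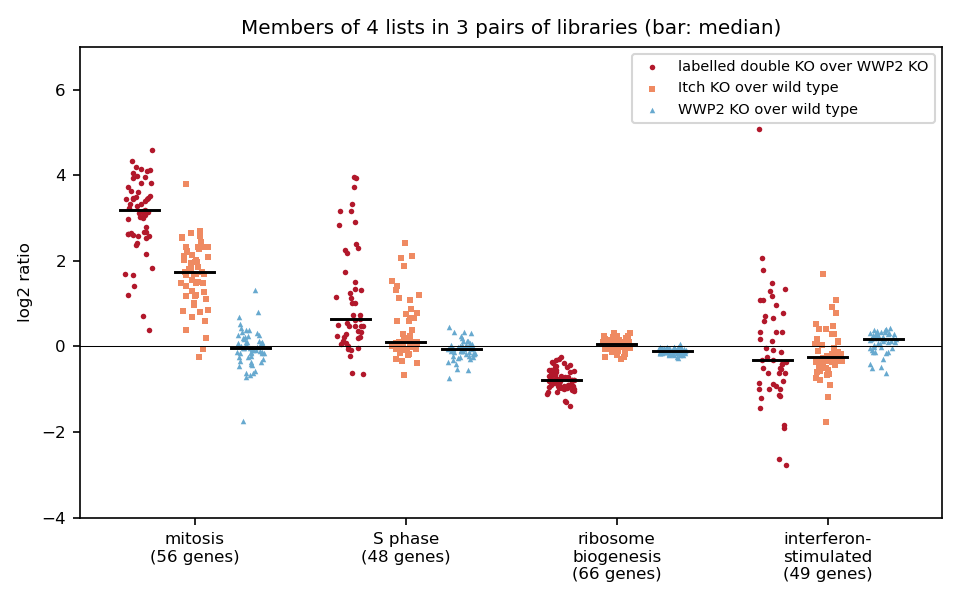
Log2 ratios of the members of 4 lists, 1 point a gene and a bar at the median, for the library labelled double KO over WWP2 KO, Itch KO over wild type and WWP2 KO over wild type. Mitosis genes have medians of 3.18, 1.74 and -0.04, S phase genes 0.63, 0.10 and -0.05, and ribosome biogenesis genes -0.78, 0.07 and -0.10. Interferon-stimulated genes scatter to both sides of 0 in the first pair.

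Signalling genes that respond first to stimulation were shifted by small amounts. Of 37 immediate early and AP-1 genes 26 were consistent and higher, 3 by at least 2-fold, and 2 lower. Fosb, an AP-1 subunit, had 2537 and 1549 reads in the library labelled double KO and Itch KO against 681 and 679 in WWP2 KO and wild type. Junb, the Itch target, had 15843 and 14056 in the deficient pair against 8008 and 8819 in the intact pair, a gap of 0.67 on the log2 scale. Of 20 reported substrates and partners of Itch 7 were consistent and higher and 1 lower, none by 2-fold. These are mRNA levels, and ubiquitination acts on the protein. Of 45 genes of T cell receptor signalling 15 were higher and 9 lower, against 24.1% and 27.0% of all genes, and the costimulatory receptor gene Icos was the member past 2-fold, with 39346 and 18934 reads in the deficient pair against 8003 and 8425 in the intact pair.

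Of 29 genes of protein folding in the endoplasmic reticulum 21 were consistent and higher and none lower, with a median log2 difference of 0.28. Sec24d, a coat protein of vesicles leaving the endoplasmic reticulum, was the member past 2-fold, with 1310 and 301 reads in the library labelled double KO and Itch KO against 128 and 121 in WWP2 KO and wild type. The chaperone gene Hspa5 had 35376 and 32702 in the deficient pair against 26600 and 27325 in the intact pair. The elongation factor gene Ell2, whose unadjusted edgeR p of 5.77e-05 was the next smallest after Il5 (adjusted p 0.267), had 2507 and 2359 reads in the deficient pair against 614 and 628 in the intact pair, nearly equal within each side. The class I myosin gene Myo1f stood at 693 and 553 reads in the deficient pair against 122 and 132 in the intact pair, with an adjusted p of 0.267 as well.

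**Figure D4:**
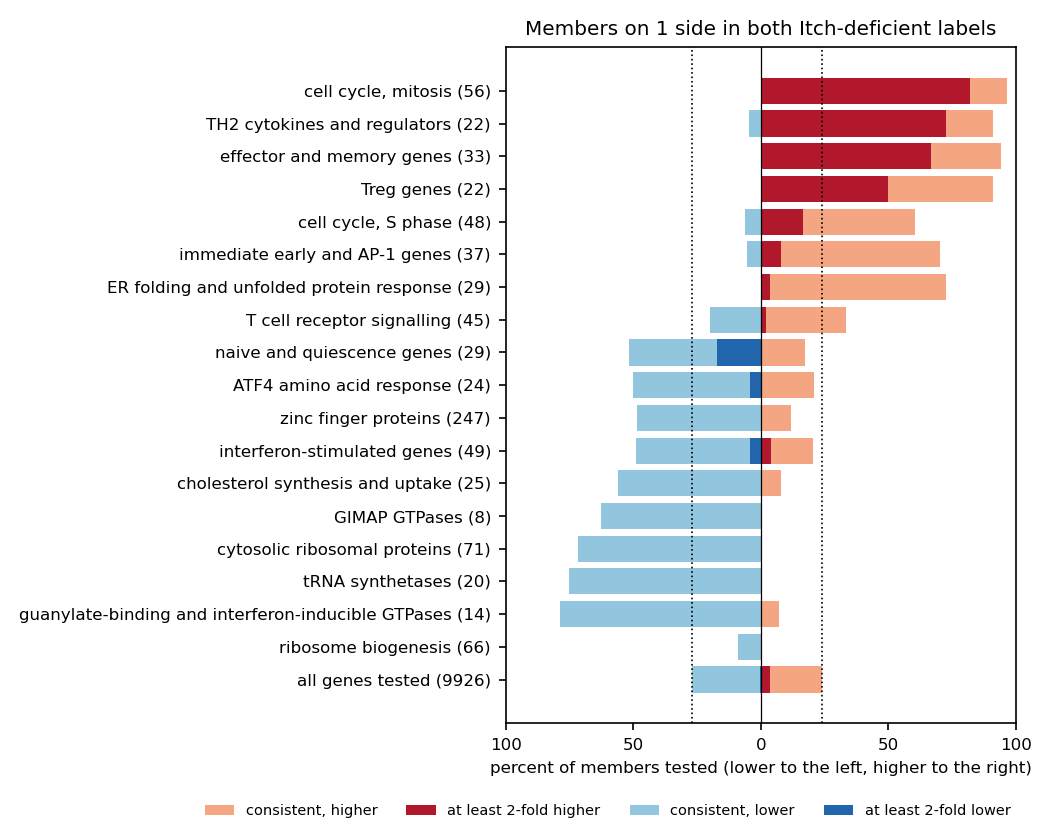
Percent of the tested members of each list (number in brackets) that were consistent, lower to the left and higher to the right, for 18 lists and all genes; dark bars are the members at least 2-fold apart and are part of the light bars, and dotted lines mark the shares of all genes tested (27.0% lower, 24.1% higher). Mitosis, TH2, effector and Treg lists reach far to the right with long dark bars, while the lists to the left have short dark bars or none.

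The lower genes were fewer and their gaps narrower. Amigo2, an adhesion molecule with leucine-rich repeats, had 37 reads in the library labelled double KO and 185 in Itch KO, against 860 in WWP2 KO and 760 in wild type, 4.11-fold lower between the nearest libraries (3.50 to 4.85). Ncf1, a cytosolic subunit of the phagocyte NADPH oxidase that makes reactive oxygen, had 57 and 322 reads in the deficient pair against 1208 and 1136 in the intact pair, 3.53-fold lower (3.12 to 4.01). Pdgfb, a growth factor gene, had 114 and 399 in the deficient pair against 1295 and 1358 in the intact pair, 3.28-fold lower (2.93 to 3.68). In each of these the library labelled double KO was lowest, Itch KO stood between, and the intact libraries lay close together. None of the 43 had an adjusted p under 0.05 by edgeR, and 42 had an unadjusted p under it. The 43 were chosen by the same values that the test uses, so the count of 42 adds no support. With the library labelled double KO left out, 60 genes (0.616% of those tested) had Itch KO at least 2-fold below both intact libraries, the 43 among them as the rule requires.

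Naive and quiescence genes supplied 5 of the 43. Tcf7, which encodes TCF-1, a factor of naive and stem-like memory T cells, was the most abundant, with 3257 and 6746 reads in the library labelled double KO and Itch KO against 16727 in WWP2 KO and 16212 in wild type, 2.40-fold lower (2.34 to 2.47). Dapl1, a gene high in naive T cells, had 19 and 28 in the deficient pair against 93 and 103 in the intact pair. St8sia6 and St8sia1 add sialic acid to sialylated glycans. St8sia6 had 37 and 70 in the deficient pair against 261 and 160 in the intact pair, and St8sia1 had 509 and 220 in the deficient pair against 1069 and 1027 in the intact pair. St8sia1 was lower in Itch KO than in the library labelled double KO, the reverse of most of the set.

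Over the whole list 15 of 29 naive and quiescence genes were consistent and lower, against 27.0% of all genes, and 5 were consistent and higher, with a median of -0.46. The 5 higher ones had gaps from 0.04 to 0.18, among them the antiproliferative genes Btg2 (0.18) and Tob1 (0.11) and the IL-7 receptor gene Il7r (0.13). Slfn2, a quiescence factor, had 13021 and 18082 reads in the deficient pair against 14620 and 15352 in the intact pair and did not separate the labels. Among transcription factors the lower genes were Tcf7, then Id3, an inhibitor of E proteins, with 140 and 354 reads in the deficient pair against 750 and 1109 in the intact pair, then Bach2, a repressor of effector genes, with 1225 and 3497 in the deficient pair against 6428 and 5943 in the intact pair, and Lef1, a relative of TCF-1, with 570 and 927 in the deficient pair against 1620 and 1356 in the intact pair. The gaps of the last pair were -0.77 and -0.55, short of 2-fold.

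**Figure D5:**
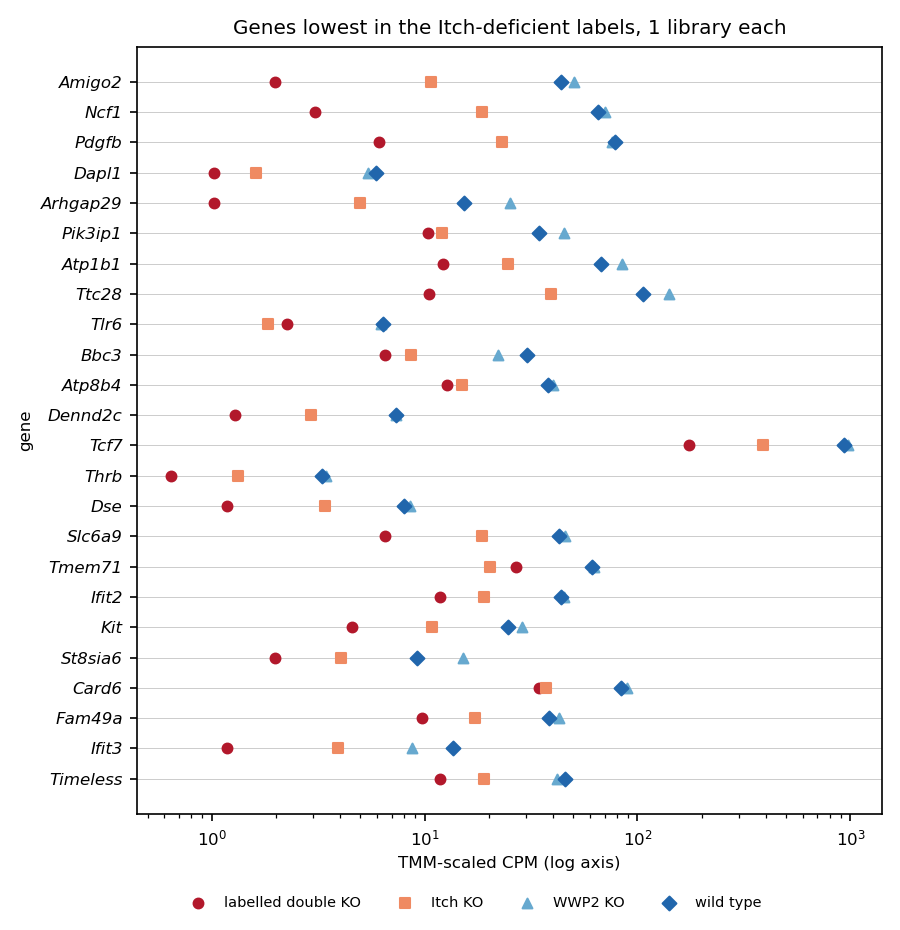
TMM-scaled CPM on a log axis for 24 named genes with wide gaps on the lower side, 1 symbol for each library. The library labelled double KO stands farthest left for most genes, while for Tlr6 and Tmem71 it is Itch KO; the blue symbols of WWP2 KO and wild type nearly coincide for genes such as Tcf7 and Slc6a9.

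Interferon-induced genes of the Ifit cluster were lower side by side. Ifit proteins bind viral RNA and are made in response to type I interferon. In RefSeq's gene order on chromosome 19, Ifit2, Ifit3, Gm14446 (Ifit1bl1), I830012O16Rik (Ifit3b), 2010002M12Rik (Ifit1bl2) and Ifit1 follow each other. Of these 2010002M12Rik was too low to be tested, with 2 and 5 reads in the deficient pair against 13 and 5 in the intact pair. Ifit2 had 220 and 330 reads in the library labelled double KO and Itch KO against 771 in WWP2 KO and 756 in wild type. Ifit3 had 22 and 68 in the deficient pair against 150 and 236 in the intact pair, Gm14446 96 and 647 in the deficient pair against 1456 and 1915 in the intact pair, and I830012O16Rik 5 and 24 in the deficient pair against 72 and 97 in the intact pair. Those 4 were past 2-fold, and Ifit1, with 71 and 194 in the deficient pair against 417 and 366 in the intact pair, had a gap of -0.91. These genes are close relatives, and reads that match several of them may have been assigned or lost by the counting. The tested neighbours outside the cluster were Fas and Lipa, with gaps of -0.01 and -0.47, and Kif20b, which did not separate the labels.

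The promoters of Ifit1 and Ifit3 are shown since each holds 2 matches to GAAA followed by any 2 bases and GAAA again, the core of the interferon-stimulated response element, here in its reverse complement. RefSeq (GRCm38.p6) places the windows at chr19:34640719-34640918 and chr19:34583359-34583558 on the plus strand, 170 bases before to 30 after the start.

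Ifit1: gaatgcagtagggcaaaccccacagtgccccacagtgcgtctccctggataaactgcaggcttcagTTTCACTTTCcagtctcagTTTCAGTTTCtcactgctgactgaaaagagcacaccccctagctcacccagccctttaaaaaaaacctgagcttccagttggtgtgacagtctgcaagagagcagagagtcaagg
Ifit3: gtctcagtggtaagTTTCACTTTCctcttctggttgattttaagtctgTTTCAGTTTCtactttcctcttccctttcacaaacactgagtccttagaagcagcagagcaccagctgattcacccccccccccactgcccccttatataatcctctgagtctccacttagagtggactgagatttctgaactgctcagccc

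On either strand the motif was present in 6 of 33 promoters of 2-fold lower genes (18.2%), in 11 of 279 promoters of 2-fold higher genes (3.94%) and in 3.05% of all 7998. It was present in 18 of 34 promoters of the interferon-stimulated list (52.9%). Ifit3 is among the 6 lower genes with a match, and Ifit2, Gm14446 and I830012O16Rik of the same cluster were also 2-fold lower. The share of lower genes without the Ifit cluster was not computed.

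The wider interferon list was not uniformly lower. Of 49 interferon-stimulated genes 24 were consistent and lower (49.0%, against 27.0% of all genes tested). By at least 2-fold 2 were lower (4.08%, against 0.433%). On the higher side were 10 (20.4%, against 24.1%), 2 of them by at least 2-fold (4.08%, against 3.68%). The median was -0.29. Ifi204, a DNA sensor, had 215 and 24 reads in the library labelled double KO and Itch KO against 4 and 6 in WWP2 KO and wild type. Mx1, an antiviral GTPase, had 89 and 57 in the deficient pair against 18 and 26 in the intact pair, and Isg15, a ubiquitin-like modifier, had 443 and 328 in the deficient pair against 192 and 171 in the intact pair. Members of the list thus lay on both sides, the higher ones at a share near that of all genes tested. Cxcl10, a chemokine induced by interferons, was on the lower side, with 226 and 423 in the deficient pair against 1154 and 921 in the intact pair. The type I interferon receptor genes Ifnar1 and Ifnar2 were lower by gaps of -0.23 each.

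The large GTPases induced by interferon gamma were more uniform. Of 14 guanylate-binding protein and immunity-related GTPase genes, which act against intracellular microbes, 11 were consistent and lower and 1 higher, with a median of -0.84 and none past 2-fold. Gbp10 had 91 and 176 reads in the library labelled double KO and Itch KO against 308 and 305 in WWP2 KO and wild type. Irgm2 had 1985 and 1977 in the deficient pair against 4195 and 3314 in the intact pair, and Gbp9 2525 and 3552 in the deficient pair against 6454 and 5693 in the intact pair. Ifi47 had 8782 and 9502 in the deficient pair against 16122 and 15142 in the intact pair. The exception was Gbp11, with 320 and 46 in the deficient pair against 38 and 38 in the intact pair. The members are near-identical in places, so the split of reads between them is uncertain. Without the library labelled double KO the count was 11 lower and 1 higher of 14, against 43.0% of all genes lower. The rule already requires Itch KO to lie on that side for consistent genes, so the count adds no support. Of 3 measured Toll-like receptors all were lower, against 27.0% of all genes. Tlr6, which pairs with TLR2, passed 2-fold with 42 and 32 reads in the deficient pair against 107 and 111 in the intact pair.

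Negative regulators of signalling and a cell death gene were among the lower genes. Pik3ip1, an inhibitor of phosphoinositide 3-kinase, had 192 and 209 reads in the library labelled double KO and Itch KO against 771 in WWP2 KO and 597 in wild type, 2.86-fold lower (2.44 to 3.36). Ptpn6, the phosphatase SHP-1 that dampens T cell receptor signals, had 1196 and 1174 in the deficient pair against 2214 and 2391 in the intact pair, a gap of -0.93, and an unadjusted edgeR p of 0.000933 (adjusted p 0.267). Within each side these counts were close. Bbc3, the pro-apoptotic gene of PUMA, had 121 and 150 in the deficient pair against 380 and 525 in the intact pair, 2.56-fold lower (2.12 to 3.12). Card6, a caspase recruitment domain gene, had 639 and 645 in the deficient pair against 1530 and 1454 in the intact pair, and its unadjusted edgeR p of 0.000507 was the smallest on the lower side (adjusted p 0.267). Gpr174, a lysophosphatidylserine receptor gene, had 3279 and 2882 in the deficient pair against 6480 and 6887 in the intact pair, and Atp8b4, a lipid flippase gene, had 236 and 259 in the deficient pair against 691 and 656 in the intact pair.

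Not every inhibitor was lower. Of 24 protein tyrosine phosphatases 11 were consistent and higher, 5 by at least 2-fold, and 4 lower. Ptpn13 had 8136 and 1267 reads in the library labelled double KO and Itch KO against 328 and 265 in WWP2 KO and wild type, and the receptor phosphatase gene Ptprj had 1090 and 377 in the deficient pair against 130 and 105 in the intact pair. Ptprc, the gene of CD45, had 41465 and 51524 in the deficient pair against 61798 and 63991 in the intact pair. Of 27 genes of the BCL2 family and p53 targets 9 were higher (33.3%) and 5 lower (18.5%), against 24.1% and 27.0% of all genes, with Pmaip1, the relative NOXA, at 950 and 458 in the deficient pair against 145 and 168 in the intact pair. Of 8 SOCS genes, feedback inhibitors of cytokine signals, 4 were higher and 1 lower, and Socs3 had 4794 and 1279 in the deficient pair against 351 and 354 in the intact pair.

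Amino acid metabolism and protein synthesis genes were lower by small gaps. Of 20 tRNA synthetase genes 15 were consistent and lower and none higher, with a median of -0.65 and none past 2-fold. Lars, for leucine, had 3280 and 5202 reads in the library labelled double KO and Itch KO against 7721 in WWP2 KO and 8480 in wild type, and Mars, for methionine, had 2274 and 3356 in the deficient pair against 4727 and 5275 in the intact pair. Rars, for arginine, had 4409 and 4985 reads in the deficient pair against 4361 and 4975 in the intact pair. Scaled for library size, Rars was lowest in the library labelled double KO and did not separate the labels. Of 24 targets of the amino acid response factor ATF4, 12 were lower and 5 higher. Pck2, a mitochondrial enzyme of gluconeogenesis, had 145 and 344 in the deficient pair against 685 and 969 in the intact pair, and Phgdh, which opens serine synthesis, had 3174 and 5671 in the deficient pair against 9249 and 10633 in the intact pair. Atf4 itself had 7070 and 7089 in the deficient pair against 5594 and 6414 in the intact pair, and Asns, another target, had 1156 and 762 in the deficient pair against 617 and 666 in the intact pair, both on the higher side.

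Solute carriers as a family lay on both sides, near the shares of all genes tested. The glycine transporter gene Slc6a9 had 121 and 323 reads in the library labelled double KO and Itch KO against 779 in WWP2 KO and 746 in wild type, 2.31-fold lower (2.02 to 2.64). Slc7a3, a transporter of cationic amino acids, had 16 and 85 in the deficient pair against 177 and 156 in the intact pair, with a gap of -0.86. Of 159 measured solute carriers 50 were consistent and higher (31.4%, against 24.1% of all genes) and 34 lower (21.4%, against 27.0%). By at least 2-fold 5 were higher (3.14%, against 3.68%) and 1 lower (0.629%, against 0.433%). Slc17a6, a vesicular glutamate transporter gene, was the farthest on the higher side, with 744 and 97 in the deficient pair against 10 and 5 in the intact pair. The one-carbon enzyme genes Mthfd1l and Shmt2 had gaps of -0.64 and -0.41, with 1759 and 2996 reads in the deficient pair against 4624 and 5009 in the intact pair for Mthfd1l.

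Of 71 ribosomal protein genes 51 were consistent and lower and none higher, by a median of -0.17, with gaps no wider than that of Rps20 at -0.29. The WWP2 KO library also lay below wild type on this list, with a median log2 ratio of -0.13, so the difference between labels is of the size of the difference within the intact pair. Scaling by DESeq2's size factors left 40 of 71 lower. Ribosome biogenesis genes, by contrast, were consistent for 6 of 66 members, since they were lower in the library labelled double KO and not in Itch KO. With the library labelled double KO left out, 45 of 66 were higher in Itch KO than in both intact libraries, against 37.6% of all genes tested. Of 25 genes of cholesterol synthesis and uptake 14 were lower and 2 higher, against 27.0% and 24.1% of all genes.

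Zinc finger genes were a large family with many lower members. Of 247 measured Zfp genes, many of which encode transcriptional repressors, 120 were consistent and lower (48.6%, against 27.0% of all genes) and 29 higher (11.7%, against 24.1%), none past 2-fold, with a median of -0.19. Zfp710 had 242 and 241 reads in the library labelled double KO and Itch KO against 496 in WWP2 KO and 450 in wild type, and Zfp318 had 515 and 661 in the deficient pair against 1147 and 1070 in the intact pair. The family includes members that are not repressors of transcription, such as Zfp36, an mRNA decay factor, which was higher at 8158 and 4986 in the deficient pair against 3711 and 3661 in the intact pair. With DESeq2's size factors 117 were lower and 30 higher. Of 8 GIMAP GTPase genes, which support lymphocyte survival, 5 were lower and none higher, and Gimap4 had 13919 and 13855 in the deficient pair against 23595 and 21730 in the intact pair. Of 40 ubiquitin-specific proteases 19 were lower (47.5%) and 5 higher (12.5%), beside the same shares of all genes. Of 30 TRIM genes 12 were lower (40.0%) and 4 higher (13.3%), with Trim12a at 741 and 647 reads in the deficient pair against 1380 and 1283 in the intact pair.

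The remaining members of the named lower set were of mixed function. Arhgap29, a GTPase-activating gene, had 19 and 86 reads in the library labelled double KO and Itch KO against 432 in WWP2 KO and 266 in wild type. Atp1b1, a subunit of the sodium pump, had 228 and 429 in the deficient pair against 1455 and 1169 in the intact pair. Ttc28 had 194 and 680 in the deficient pair against 2416 and 1843 in the intact pair. Timeless, of the replication fork protection complex, was lower at 220 and 331 in the deficient pair against 721 and 795 in the intact pair, although the S phase list it is functionally close to was mostly higher. Dennd2c, Thrb, Dse, Tmem71, Fam49a and Kit had gaps between -1.28 and -1.15, with Thrb, a thyroid hormone receptor gene, at 12 and 23 reads in the deficient pair against 59 and 57 in the intact pair. Of the 43 lower genes 25 were on none of the lists or families. Others among the 43, named after their values were seen, were Foxj1, a factor of quiescent T cells, with 53 and 53 reads in the deficient pair against 108 and 120 in the intact pair, Pycr1, an enzyme of proline synthesis, with 43 and 122 in the deficient pair against 262 and 311 in the intact pair, and the ceramide enzyme gene Degs2, with 323 and 502 in the deficient pair against 1271 and 1058 in the intact pair.

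Genes in which Itch KO lay farther out than the library labelled double KO were few, 16 of the 365 higher and 6 of the 43 lower; those not yet described were named after their values were seen. Il9, a mast cell growth factor gene, had 41 reads in the library labelled double KO and 406 in Itch KO, against 4 in WWP2 KO and 1 in wild type. Ccr4, a chemokine receptor of TH2 and skin-homing cells, had 1985 and 2973 in the deficient pair against 806 and 768 in the intact pair. The MHC class II genes H2-Aa, H2-Ab1 and H2-Eb1 had 81 and 207, 58 and 147, and 78 and 167 reads in the deficient pair, against 23 and 24, 20 and 18, and 14 and 30 in the intact pair. B cell markers stood at 2.26 and 5.42 CPM on the deficient side and 3.32 and 2.71 CPM on the intact side, so the highest sum was also that of Itch KO. The part of B cells in the class II values was not tested.

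Genes of equal level in the deficient pair stand apart from that pattern. Among the 2-fold lower genes 14 of 43, and among the 2-fold higher genes 42 of 365, differed by less than 0.5 on the log2 scale between the library labelled double KO and Itch KO. Card6, Pik3ip1, Atp8b4 and Gpr174 belong to the lower set of this kind, and Il5, Il13 and Ell2 to the higher one. Of 489 genes with a log2 ratio of at least 1 for Itch KO over wild type (4.93% of genes tested) 472 were consistent, and of 84 with a ratio of -1 or less (0.846%) 79 were; the rule itself uses both of these libraries.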

How the data were processed

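RNA from splenic CD4+ T cells was sequenced in 4 libraries, 1 per genotype. The authors deposited raw read counts per gene, without normalization. The submitters' processing notes name TopHat 1.4.1 and Bowtie 1.0.0, HTSeq 0.7.1 and the build mm9. No annotation, strand setting or filter is given in the sources used here, so overlapping, antisense and near-identical genes can share or lose reads. Libraries were grouped by the Itch status of their genotype labels. Counts were scaled by TMM in edgeR 4.0.16 (R 4.3.3); genes with a mean of at least 2 CPM were kept. Log2 values used a prior count of 2. The labels were tested with edgeR's quasi-likelihood test, which leaves 2 residual degrees of freedom, with Benjamini-Hochberg adjustment at 0.05. Gap intervals are exact conditional binomial 95% intervals; they cover counting error only, since reads without molecular identifiers do not count molecules. The fit was tested on simulated data. Alternatives were DESeq2 1.42.0 size factors and Wald test, other filters, a prior count of 0.5, an additive WWP2 term and leaving out each library. Tables and figures were made with matplotlib 3.10.9, scipy 1.17.1, pandas 2.3.3 and numpy 2.4.6 under Python 3.11.15.

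Named genes were Itch and Wwp2, the 20 widest gaps above and 25 below, the 5 smallest edgeR p-values per direction, the most abundant cell markers, and of each described list up to 4 members with the widest gap per direction, 2 opposite and 2 nearest to no difference; sex-linked genes, receptor segments, small RNAs and gene models without names were not ranked. Some genes that the rule names are not reported here. A gene outside this rule, such as one used as an example beside these, was chosen after its values were seen. The members, 47 function lists, 15 cell lists and 61 families were chosen with earlier results of these data known. Promoters are the first listed for each gene by RefSeq, 250 bases before to 50 after the start; 7998 of 9926 tested genes matched by symbol.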

Additional observations from a re-analysis of the deposited data

Results flagged for a closer look

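A few results ran in opposite directions in the pairs that share no library, Itch KO over wild type and the library labelled double KO over WWP2 KO. None of these differences was tested, since a fit with an interaction term leaves no residual degrees of freedom. At 2-fold or more in each pair there were 2 such genes (0.0201% of genes tested). Slamf7, a receptor of the SLAM family, had log2 ratios of -1.68 in the library labelled double KO over WWP2 KO and 1.02 in Itch KO over wild type, with 398 and 2161 reads on the deficient side and 1181 and 1067 on the intact side. Syde2, a GTPase-activating gene, had ratios of -1.44 and 1.17, with 29 and 162 reads on the deficient side and 76 and 71 on the intact side.

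List medians with opposite signs, each at least 0.2 in size, are given in the same order of pairs. The median of CC and CXC chemokine genes was -1.74 and 0.92, over 7 genes. That of Kruppel-like factors was -0.54 and 0.28, that of the SLAM family -0.48 and 0.31, that of TFH genes -0.42 and 0.31, and that of NF-kB subunits and targets -0.31 and 0.22.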

How the results depend on the processing

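No paired analysis by replicate number was possible because each genotype has 1 library and they share fewer than 2 replicate numbers; a fit with an additive term for the WWP2 label, on 1 residual degree of freedom, called 1 gene higher and 0 lower (367 lower at an unadjusted p under 0.05), with Il5 at an adjusted p of 0.0102. List medians changed sign in at least 1 setting for 31 of 108 lists and families. Without the library labelled double KO, ribosome biogenesis genes had a median of 0.13 (-0.36 with it), TFH genes 0.26 (-0.16), NF-kB subunits and targets 0.28 (-0.06) and BCL2 family and p53 targets 0.14 (-0.03), and without Itch KO, TH1 genes had -0.07 (0.61 with it). By DESeq2's Wald test 555 genes were higher and 108 lower. Leaving out 1 library gave 0 to 2827 genes higher and 0 to 2911 lower by edgeR (without the Itch KO library 2827 and 2911, without the library labelled double KO 892 and 629, without wild type 2 and 0, and without WWP2 KO 0 and 0, where 439 were higher and 61 lower at an unadjusted p under 0.05). A side left with 1 library is then assumed to vary like the other. The consistent counts ranged over 2913 to 4376 higher and 3311 to 4731 lower, the 2-fold counts over 314 to 1079 higher and 57 to 506 lower, highest without the Itch KO library in each case. Without the library labelled double KO, consistent genes were 3664 higher and 4183 lower. The 314 and 60 genes then called at 2-fold held 278 of the 365 and all 43, which the rule largely requires. A mean of at least 10 CPM left 181 of the 2-fold higher genes and 30 of the lower. DESeq2's size factors gave 372 and 41, no low filter 451 and 63 and a prior count of 0.5 375 and 43. The size factors moved the median of all genes by 0.0096 (log2). The adjusted p of Il5 ran from 1.19e-12 without Itch KO to 0.0752 without WWP2 KO over the edgeR fits. Low counts in the intact libraries limit the folds of higher genes, 34 of the 365 having fewer than 10 reads in each.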
